A study of Mus musculus with 26 samples.

Results

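Lungs of Il10-/- mice were set against lungs of Il10+/+ mice after 48 hr of ozone (O3), on 6 of the 26 arrays of the series. The 6 arrays were taken by their labels, 3 of Il10-/- mice and 3 of Il10+/+ mice. The Il10-/- mice carried the targeted Il10 allele of B6.129P2-Il10tm1Cgn/J mice and the Il10+/+ mice were C57BL/6. All were males of 6 to 8 weeks, and all 6 arrays are of mice that breathed 0.3 ppm O3 for 23.5 hr a day. The deletion is present in every cell of the Il10-/- mice from the start of life. The remaining 20 arrays are of the same 2 genotypes in filtered air (4 arrays each, at 24 and 48 hr) and at 24 and 72 hr of O3 (3 arrays each at either time). Each array measured mRNA of the whole left lung, and the labels do not say whether an array held 1 mouse or several. The p-values therefore measure the spread between arrays, which may be technical in part.

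Interleukin-10 is a cytokine of macrophages and lymphocytes that signals through its receptor and STAT3 to restrain the release of inflammatory mediators. O3 is an oxidant gas that injures the airway epithelium at the junction of airway and alveolus, and injured lung attracts neutrophils and then repairs itself by cell division. Lung epithelium and arriving neutrophils both make acute phase proteins such as serum amyloid A and lipocalin 2. The comparison asks how mRNA levels differ between Il10-/- and Il10+/+ lungs once O3 injury is established. The 2 genotypes are also 2 strains, so effects of the deletion and of other inherited differences between them cannot be told apart.

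Levels are given as log2 values, normalized by the Robust Multichip Average method, so that a difference of 1 is a doubling. Of 12394 genes tested with limma, 1 passed a Benjamini-Hochberg adjusted p of 0.05, a share of 0.00807%, and it was higher in Il10-/- lungs. At an unadjusted p under 0.05 138 genes (1.11%) had higher values and 196 (1.58%) lower values in Il10-/- lungs, or 2.69% of all genes together. The 3 arrays of one genotype lay wholly above or below the 3 of the other at 1006 genes (8.12%). Of these, 397 were higher in Il10-/- lungs (3.2% of all genes) and 609 were lower (4.91%). With 3 arrays a genotype, chance alone keeps the groups apart at no smaller a share of genes. The 2.69% of genes at an unadjusted p under 0.05 by limma was likewise no more than chance gives. Lack of overlap at a single gene is therefore not by itself a genotype difference. The median standard error of a difference was 0.133. A difference beyond 1 in size was seen at 18 genes, 12 of them higher (0.0968% of all genes) and 6 lower (0.0484%) in Il10-/- lungs. By the same adjusted threshold, 1 gene passed between genotypes in air (0.00807%, and 16 genes, or 0.129%, without the air library labelled Il10-/- 48 hr replicate 1), 82 at 24 hr (0.662%), and 3 at 72 hr of O3 (0.0242%).

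The tissue was lung by its defining markers in both genotypes, with mean levels of 14.36 in Il10-/- and 14.37 in Il10+/+ lungs for Sftpc, a surfactant gene of alveolar type 2 cells. Scgb1a1 of airway club cells averaged 14.26 in Il10-/- and 14.22 in Il10+/+ lungs. Across all probe sets the r between arrays of Il10-/- lungs ranged from 0.986 to 0.992, that between arrays of Il10+/+ lungs from 0.991 to 0.996, and that between genotypes from 0.989 to 0.994. Il10-/- replicate 1 had an r of 0.993 with Il10+/+ replicate 1, against 0.989 and 0.986 with the other 2 Il10-/- arrays. On 1 array outside the 6, the library labelled Il10-/- air 48 hr replicate 1, Il10 was at 3.87 where the other 3 Il10-/- air arrays had 6.29 to 6.72. Its label was kept. It enters the values in air and the shared estimate of the spread. Without it, a choice made for the values in air after the data were seen, the arrays of the genotypes did not overlap in air at 7.05% of genes, against 4.43% with it. Leaving out an array can only keep or raise such a share, so the rise says nothing of this library.

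The 1 gene that passed was Il10 itself. Its probe set read 7.29, 7.42, and 7.25 on the Il10-/- arrays, against 4.08, 4.08, and 4.21 on the Il10+/+ arrays. The groups did not overlap, and the probe set read higher by 3.20 ± 0.43 (SE) on the log2 scale in Il10-/- lungs. This is a 9.17-fold difference (limma adjusted p = 0.00269). The files do not state which stretch of the transcript the probe set binds, so this value is no check of the deletion. The reading is higher in the mice that lack a working gene. The study reports, with data not shown, that Il10 mRNA was not detected in Il10-/- lungs in air or O3.

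The genes nearest to the threshold after Il10 also kept the genotypes apart at 24 and 72 hr of O3. Wdfy1, which encodes an endosomal protein with WD40 repeats and a FYVE domain, read 8.18, 8.10, and 8.55 on the Il10-/- arrays, against 6.78, 6.40, and 7.15 on the Il10+/+ arrays. The difference was 1.50 ± 0.26 (SE; adjusted p = 0.0533). All 3 probe sets of Wdfy1 were higher in Il10-/- lungs, by 1.82, 1.50, and 0.74. Ramp1, which encodes a subunit of the receptor for calcitonin gene-related peptide, read 8.11, 7.68, and 7.81 on the Il10-/- arrays, against 9.03, 8.80, and 8.76 on the Il10+/+ arrays. The difference was -0.99 ± 0.18 (SE; adjusted p = 0.0568). Neither gene passed, and neither showed overlap between the groups.

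Ctse, the aspartic protease cathepsin E, had the next largest difference after Il10. It read 8.14, 8.30, and 8.20 on the Il10-/- arrays, against 5.92, 5.85, and 5.50 on the Il10+/+ arrays, a difference of 2.45 ± 0.49 (SE; adjusted p = 0.194). A second probe set named Ctse gave a difference of -0.01, so the 2 probe sets of this gene disagree. Of 19 measured cathepsins and cystatins, Ctse alone kept the groups apart, where 3.2% of all genes lay higher, and the median difference of the list was 0.03. Nnt, a mitochondrial transhydrogenase that makes NADPH and in which C57BL/6J mice are known to carry a deletion, read 8.74, 8.73, and 8.78 on the Il10-/- arrays, against 7.74, 7.43, and 7.63 on the Il10+/+ arrays. Its difference was 1.15 ± 0.24 (SE; adjusted p = 0.234), and its second probe set gave 1.07.

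Stk25, a serine/threonine kinase of the Golgi, read 8.09, 8.06, and 6.45 on the Il10-/- arrays, against 9.79, 9.76, and 9.93 on the Il10+/+ arrays. The 3 Il10+/+ values lay within a narrow band and Il10-/- replicate 3 stood well below its own group. Pam, which amidates neuropeptides, read 7.69, 7.62, and 7.11 on the Il10-/- arrays, against 6.09, 6.15, and 6.39 on the Il10+/+ arrays, and replicate 3 was again the lowest Il10-/- array. St8sia4, a polysialyltransferase, read 8.46, 7.56, and 7.00 on the Il10-/- arrays, against 8.99, 9.02, and 8.60 on the Il10+/+ arrays. The differences of Stk25, Pam, and St8sia4 were -2.29 ± 0.55, 1.26 ± 0.37, and -1.20 ± 0.32 (SE). None of these 3 genes passed the adjusted threshold.

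**Figure D1:**
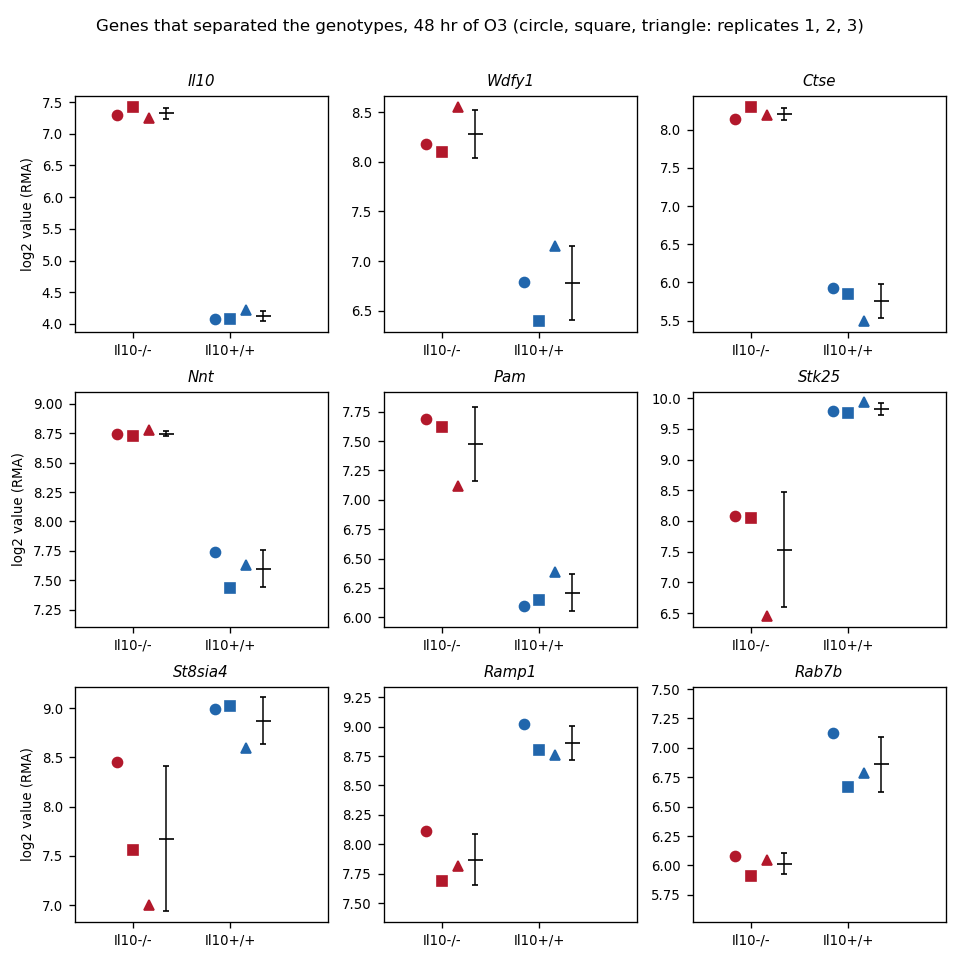
Log2 values of 9 genes at 48 hr of O3, Il10-/- arrays (red) left of Il10+/+ arrays (blue), with each array as a point (circle, square, and triangle for replicates 1, 2, and 3) and the group mean with its SD in black. The groups do not overlap at any of the 9 genes. The vertical scales differ between panels.

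Chromosome 1, which carries Il10, held many of these genes. In gene order along GRCm38.p6, Ctse was 8 measured genes after Il10, Rab7b 9 after, and Chil1 32 after, while Pam was 53 genes before Il10, St8sia4 57 before, Stk25 65 before, Ramp1 87 before, and Wdfy1 145 before. Among the 101 measured genes from 50 before to 50 after Il10, the arrays of the genotypes did not overlap at 22, or 21.8%, with 10 higher and 12 lower in Il10-/- lungs. The share was 14.5% of the 200 genes that lie 51 to 150 genes from Il10, and 9.83% of the 407 that lie further away on the chromosome. Over all genes of the other chromosomes it was 7.83%. Of the 18 genes with a difference beyond 1, 6 are on chromosome 1, which holds 5.71% of the genes tested. Rab7b, a small GTPase of late endosomes, read 6.08, 5.91, and 6.05 on the Il10-/- arrays, against 7.12, 6.67, and 6.78 on the Il10+/+ arrays. The second probe set of Rab7b ran the other way without overlap, at 5.32 to 5.50 on the Il10-/- arrays and 5.18 to 5.21 on the Il10+/+ arrays, so the direction of Rab7b is not settled. Chil1, the chitinase-like lectin of macrophages and airway epithelium, read 11.58, 11.84, and 11.54 on the Il10-/- arrays, against 12.72, 12.53, and 12.62 on the Il10+/+ arrays.

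**Figure D2:**
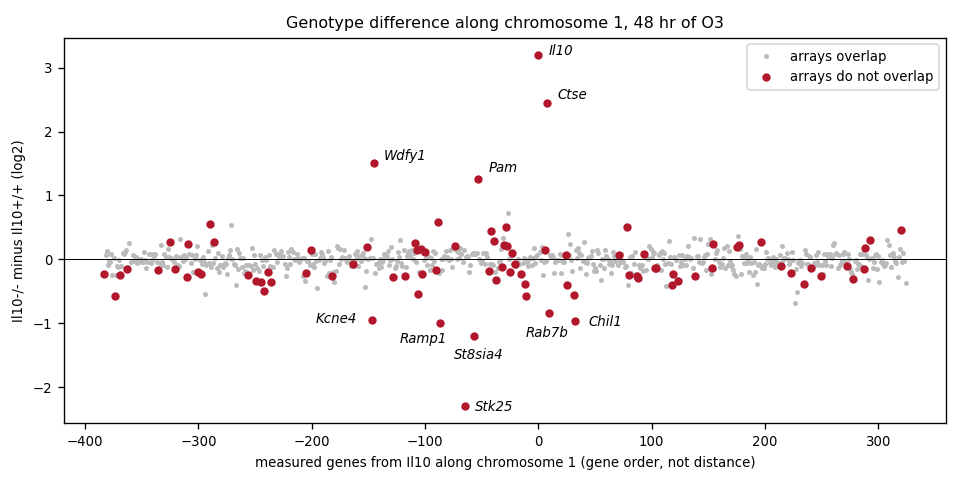
Difference between Il10-/- and Il10+/+ lungs at 48 hr of O3 (log2, vertical axis) for each measured gene of chromosome 1, placed by the number of measured genes between it and Il10 (horizontal axis). Red points are genes whose 3 arrays per genotype do not overlap, which made up 21.8% of the 101 genes around Il10 and 9.83% of those more than 150 genes away.

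Of the acute phase and neutrophil genes, Saa3, a serum amyloid A made by lung epithelium and macrophages, differed most. It read 10.41, 10.99, and 10.06 on the Il10-/- arrays, against 8.08, 8.17, and 8.45 on the Il10+/+ arrays. The groups did not overlap, and the difference was 2.25 ± 0.49 (SE), a 4.77-fold higher mean in Il10-/- lungs (unadjusted p = 0.000146, adjusted p = 0.302). In air the 2 genotypes overlapped, with 5.74 to 6.37 on the 4 Il10-/- arrays and 5.58 to 6.43 on the 4 Il10+/+ arrays. The genotype difference in air was 0.05, and that at 48 hr exceeded it by 2.21 (unadjusted p = 0.00258, adjusted p = 1.00).

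Acute phase genes leaned the same way as Saa3 without passing the test. Of 25 measured acute phase and STAT3 target genes, 0 passed by limma and 6 had an unadjusted p under 0.05, all of them higher. That p was reached in this direction by 1.11% of all genes. The arrays did not overlap at 5 higher genes, Saa3, Saa4, Saa2, Fgb, and S100a9, and at 1 lower gene, Cebpd, against the 3.2% and 4.91% of all genes. The difference was above 0 at 21 of the 25, with a median of 0.21 where that of all genes was -0.02. Saa4, Saa2, and Fgb, a fibrinogen chain, differed by 0.33, 0.17, and 0.21, all at low levels near 4. Cebpd, a transcription factor of the acute phase, differed by -0.37. Orm1, an acute phase glycoprotein, read 5.31, 8.04, and 6.87 on the Il10-/- arrays, against 4.91, 4.96, and 5.50 on the Il10+/+ arrays. Its Il10-/- arrays lay far apart from one another, and replicate 1 overlapped the Il10+/+ arrays. The Orm1 difference was 1.62 ± 0.40 (SE; adjusted p = 0.649), and without Il10-/- replicate 1 Orm1 passed the threshold. Lcn2, which binds bacterial siderophores, read 11.38, 12.36, and 12.22 on the Il10-/- arrays, against 11.53, 11.23, and 11.17 on the Il10+/+ arrays, and here too replicate 1 alone of the Il10-/- arrays lay among the Il10+/+ values.

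Neutrophil genes were higher at several members. S100a9, a calcium-binding subunit of calprotectin, read 11.51, 10.74, and 10.65 on the Il10-/- arrays, against 10.62, 8.85, and 8.71 on the Il10+/+ arrays. The gap between the groups was narrow because Il10+/+ replicate 1 lay close to the Il10-/- arrays, and the difference was 1.57 ± 0.55 (SE; adjusted p = 1.00). Its partner S100a8 read 11.18, 10.24, and 10.02 on the Il10-/- arrays, against 10.09, 8.51, and 8.39 on the Il10+/+ arrays, with overlap at Il10+/+ replicate 1. Csf3r, the receptor for granulocyte colony-stimulating factor, read 8.81, 8.30, and 8.14 on the Il10-/- arrays, against 7.56, 7.30, and 6.80 on the Il10+/+ arrays. In each of these 3 genes replicate 1 was the highest array of its own genotype. Mmp9, gelatinase B of neutrophil granules, read 6.55, 6.78, and 6.63 on the Il10-/- arrays, against 6.24, 5.90, and 5.67 on the Il10+/+ arrays. Il1r2, the decoy receptor for interleukin-1, read 5.77, 5.82, and 5.81 on the Il10-/- arrays, against 5.42, 5.12, and 5.19 on the Il10+/+ arrays, with an SD of 0.03 among the Il10-/- arrays and of 0.16 among the Il10+/+ arrays. S100a14, another S100 gene, overlapped, at 7.20 to 8.05 on the Il10-/- and 7.22 to 8.11 on the Il10+/+ arrays, a difference of 0.20. The study reports S100a14 mRNA as higher in Il10-/- lung homogenates at this time.

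Of 19 measured neutrophil markers, 0 passed by limma and 6 had an unadjusted p under 0.05, all higher, where 1.11% of all genes did. The arrays did not overlap at 5, which were S100a9, Csf3r, Mmp9, Elane, and Il1r2, and all 5 were higher in Il10-/- lungs, or 26.3% of the list, where 3.2% of all genes lay higher. The median difference of the list was 0.13. Elane was low in both genotypes, with means of 4.37 in Il10-/- and 4.23 in Il10+/+ lungs. Of the other granule genes in the list, Mpo averaged 4.12 in Il10-/- and 4.07 in Il10+/+ lungs, and Camp 4.59 in Il10-/- and 5.01 in Il10+/+ lungs. The summed linear level of the 19 markers ran from 5129 to 7933 on Il10-/- arrays and from 2910 to 5325 on Il10+/+ arrays. In a linear sum the members of high level, S100a9 and S100a8 among them, weigh most. The sum therefore does not show a rise across the list. In whole lung, more neutrophils and more mRNA per neutrophil cannot be told apart. The part of neutrophil content in the values of S100a9, S100a8, Il1b, and the acute phase genes was not tested.

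**Figure D3:**
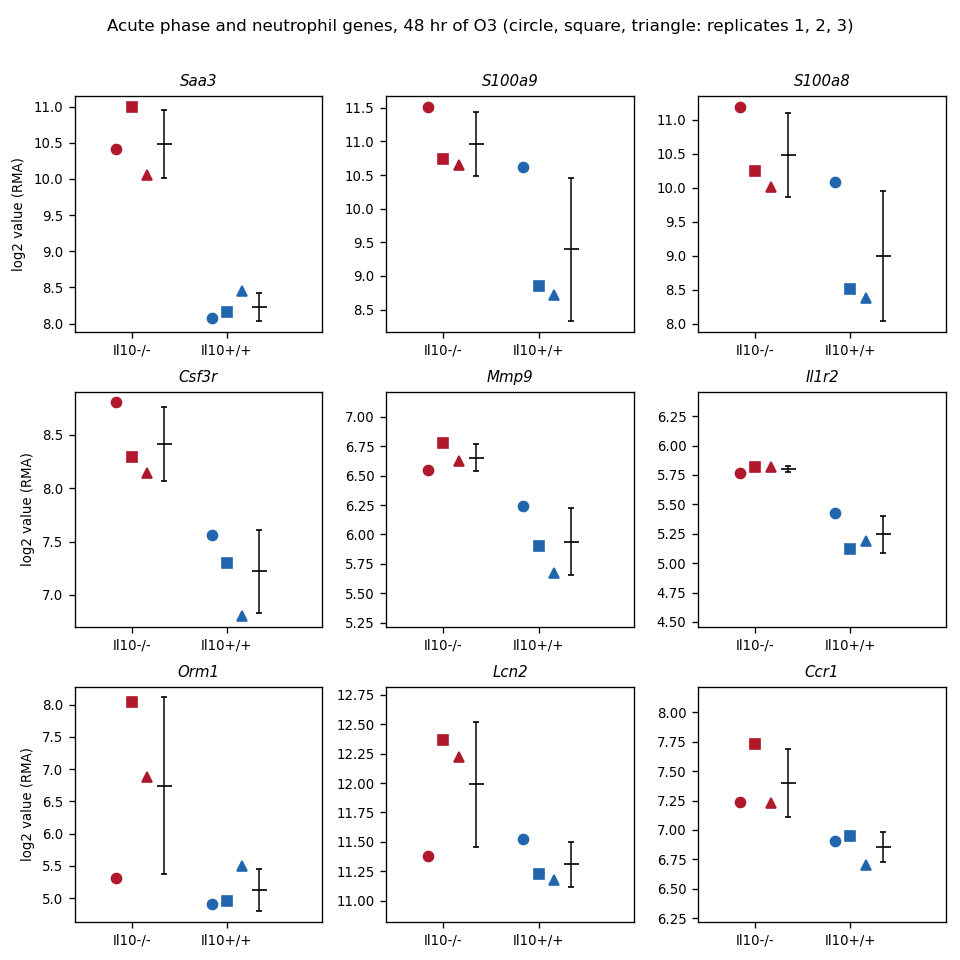
Log2 values of 9 acute phase and neutrophil genes at 48 hr of O3, drawn as in the plot of genotype-separating genes, with Il10-/- arrays left of Il10+/+ arrays and means ± SD in black. Saa3, S100a9, Csf3r, Mmp9, Il1r2, and Ccr1 do not overlap between genotypes, while S100a8, Orm1, and Lcn2 do.

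The region before the start site is shown for Saa3 and S100a9, the acute phase genes of largest difference that have an entry in RefSeq's promoter table (GRCm38.p6). Each run is the 250 bases before the annotated start, on the gene's own strand, which is the minus strand for both. Saa3 is at chr7:46715677-46715926 and S100a9 at chr3:90695722-90695971.
Saa3: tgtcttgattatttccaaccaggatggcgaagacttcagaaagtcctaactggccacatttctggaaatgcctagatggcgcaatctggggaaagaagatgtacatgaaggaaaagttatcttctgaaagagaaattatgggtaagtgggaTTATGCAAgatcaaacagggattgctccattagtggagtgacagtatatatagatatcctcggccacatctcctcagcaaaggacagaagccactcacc
S100a9: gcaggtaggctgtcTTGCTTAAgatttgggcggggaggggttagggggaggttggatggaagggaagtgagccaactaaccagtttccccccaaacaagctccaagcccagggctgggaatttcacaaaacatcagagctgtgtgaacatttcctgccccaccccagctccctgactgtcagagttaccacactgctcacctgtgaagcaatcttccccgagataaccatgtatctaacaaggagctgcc
Capitals mark matches on either strand to TTGCNNAA, a short form of the C/EBP binding motif. Saa3 held 1 match, beginning at position -99 from the start, and S100a9 held 1 at position -236. Such a match was present in 9.56% of all 32851 windows of this length in the table. Neither window held TTCNNNGAA, a short STAT motif found in 7.02% of windows. A match describes the letters and shows no binding.

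Some cytokine and chemokine genes kept the groups apart, and 0 of the genes in these lists passed by limma. Il1b, which encodes interleukin-1 beta, read 8.78, 7.86, and 7.72 on the Il10-/- arrays, against 7.89, 7.37, and 7.40 on the Il10+/+ arrays, with overlap at Il10+/+ replicate 1 and a difference of 0.56 ± 0.28 (SE; adjusted p = 1.00). Ccr1, a chemokine receptor of myeloid cells, read 7.24, 7.73, and 7.23 on the Il10-/- arrays, against 6.90, 6.95, and 6.71 on the Il10+/+ arrays. Of 19 genes of the interleukin-1 and interleukin-6 families, the arrays did not overlap at Il1r2, Il1rap, and Il18rap (15.8% of the list). All were higher in Il10-/- lungs, by 0.56, 0.09, and 0.27, where 3.2% of all genes lay higher and 4.91% lower. The other probe sets of Il1rap gave 0.31 and -0.06, so the probe sets of this gene disagree in direction. Of 18 CXC chemokines and receptors, Cxcr6, Cxcl1, and Cxcl16 lay higher without overlap (16.7% of the list), by 0.81, 0.36, and 0.17. Cxcr4 lay lower (5.6%), with a difference of -0.57. Cxcr6 marks resident T cells and Cxcl16 is its ligand. Cxcl1 averaged 5.32 in Il10-/- and 4.96 in Il10+/+ lungs, and Cxcl2, which encodes MIP-2, differed by -0.06 ± 0.11 (SE) at levels of 4.35 to 4.50 in Il10-/- and 4.41 to 4.54 in Il10+/+ lungs.

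The mediators through which the study set out to follow interleukin-10 differed little in mRNA at this time. Stat3 differed by 0.06 ± 0.18, Socs3, its feedback inhibitor, by -0.08 ± 0.25, and Rela, the p65 subunit of NF-kappaB, by -0.07 ± 0.14 (SE). Il6 differed by 0.03 ± 0.24, Tnf by 0.19 ± 0.13, and Cd86, a costimulatory molecule of antigen-presenting cells, by -0.12 ± 0.20 (SE). The direction of Stat3, Rela, Il6, and Cd86 turned under at least 1 alternative processing. Of 22 TNF and NF-kappaB genes, the arrays did not overlap at 4, Relb, Nfkbie, Birc3, and Nos2, and all 4 were lower in Il10-/- lungs, with differences of -0.25, -0.32, -0.21, and -0.13, where 4.91% of all genes lay lower.

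Immediate early genes, which cells transcribe within minutes of a stimulus, lay lower in Il10-/- lungs. Of 25 measured, 0 passed by limma and 7 had an unadjusted p under 0.05, all of them lower, where 1.58% of all genes did. The arrays did not overlap at 11, all lower (44% of the list, against 4.91% of all genes). Nr4a1, an orphan nuclear receptor, read 8.79, 8.65, and 8.48 on the Il10-/- arrays, against 9.34, 9.36, and 9.60 on the Il10+/+ arrays, a difference of -0.79 ± 0.24 (SE; adjusted p = 1.00). Egr2, a zinc finger transcription factor, read 5.78, 6.22, and 6.04 on the Il10-/- arrays, against 6.64, 6.94, and 6.41 on the Il10+/+ arrays. Every Il10-/- value of both genes lay below every Il10+/+ value. Jun, a subunit of AP-1, differed by -0.36 ± 0.12, Btg2, an antiproliferative gene that is 31 genes from Il10 on chromosome 1, by -0.55 ± 0.19, and Klf2 by -0.48 ± 0.22 (SE). The second probe sets of Jun and Btg2 gave -0.17 and -0.42. Fos, the partner of Jun, differed by only -0.19 ± 0.21 (SE), with overlap. At 24 hr of O3, with 2 Il10-/- arrays, Fos was higher in Il10-/- lungs by 1.28 ± 0.24 (SE; limma adjusted p = 0.0157). At that time 6 genes of the list lay higher and 1 lower without overlap, against 12.2% and 8.65% of all genes. The median difference of the 25 genes was -0.08 in air, and 0.11, -0.25, and -0.09 at 24, 48, and 72 hr of O3. The mean level of the list was 8.19 to 8.35 on the Il10-/- arrays and 8.51 to 8.52 on the Il10+/+ arrays.

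The region before the start of Nr4a1 is printed because Nr4a1 had the largest difference of these genes. It is at chr15:101266596-101266845 of GRCm38.p6, on the plus strand, and is again the 250 bases before the start in RefSeq's table.
Nr4a1: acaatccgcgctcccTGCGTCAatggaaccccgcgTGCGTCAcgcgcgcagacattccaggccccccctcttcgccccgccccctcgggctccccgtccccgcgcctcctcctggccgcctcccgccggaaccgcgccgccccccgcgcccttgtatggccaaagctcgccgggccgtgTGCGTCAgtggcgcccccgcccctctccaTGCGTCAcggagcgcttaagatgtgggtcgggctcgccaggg
Capitals mark TGNGTCA on either strand, letters shared by AP-1 sites and some CRE-like sites. The Nr4a1 window held 4 such matches, beginning at positions -235, -215, -71, and -42, and all 4 read TGCGTCA. At least 1 match was present in 13% of all windows. The Saa3 and S100a9 windows held 0.

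Heat shock genes leaned the same way. Of 15 measured, the arrays did not overlap at 5, Hspa1a, Hspa1b, Hspe1, Dnajb1, and Bag3, all lower in Il10-/- lungs (4.91% of all genes lay lower), and the median difference was -0.25. Hspa1a, the stress-inducible HSP70 chaperone, read 9.21, 8.99, and 9.07 on the Il10-/- arrays, against 9.61, 10.32, and 10.31 on the Il10+/+ arrays, a difference of -0.99 ± 0.55 (SE; adjusted p = 1.00). In air its difference ran the other way, at 1.80, with 10.39 to 12.09 on Il10-/- arrays and 8.10 to 10.23 on Il10+/+ arrays. The difference at 48 hr minus that in air was -2.80 (unadjusted p = 0.000942, adjusted p = 1.00). In air the median difference of the heat shock list was 0.51.

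Genes of the clock and of glucocorticoid action kept the groups apart in both directions, and 0 of either list passed by limma. Of 14 measured glucocorticoid targets, Fkbp5 and Zbtb16 lay higher in Il10-/- lungs without overlap, and Per1, Dusp1, Pdk4, and Errfi1 lay lower, with a median difference of -0.01 for the list. At an unadjusted p under 0.05 there were 3 higher and 2 lower targets. Of 18 clock genes, Cry2, Nr1d1, and Dbp lay higher and Clock, Per1, and Nfil3 lower, 1 of them at an unadjusted p under 0.05. Over all genes, 3.2% lay higher and 4.91% lower without overlap, and 1.11% were higher and 1.58% lower at an unadjusted p under 0.05. Fkbp5, a glucocorticoid-induced chaperone, read 8.21, 8.84, and 8.72 on the Il10-/- arrays, against 7.81, 7.77, and 7.79 on the Il10+/+ arrays, and its difference of 0.80 ± 0.28 (SE) stood beside one of 0.82 in air. Per1, a clock repressor, read 8.28, 7.99, and 7.75 on the Il10-/- arrays, against 9.25, 9.11, and 8.54 on the Il10+/+ arrays. Dbp, a clock output gene, read 6.11, 6.67, and 7.06 on the Il10-/- arrays, against 5.10, 5.06, and 5.69 on the Il10+/+ arrays. Neither clock gene passed, and the difference of Dbp, 1.33 ± 0.91 (SE), was within 2 standard errors. The hour of day at which each lung was taken was not used here.

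Mitosis genes overlapped between genotypes. Of 34 mitosis genes, 0 kept the arrays apart in either direction, though 30 had a difference above 0, with a median of 0.23. The mean level of the list was 7.21, 6.74, and 6.99 on the Il10-/- arrays, against 6.54, 6.74, and 7.03 on the Il10+/+ arrays. Kif20a, a kinesin of the dividing spindle, read 6.18, 5.74, and 6.43 on the Il10-/- arrays, against 5.44, 5.49, and 5.79 on the Il10+/+ arrays, a difference of 0.54 ± 0.15 (SE; adjusted p = 1.00). Mki67, the gene of the Ki-67 proliferation antigen, differed by -0.04 ± 0.33 (SE), a direction that turned under median centring. At 72 hr of O3 the median difference of the mitosis list was -0.30, and 10 of its genes lay lower without overlap, where 5.45% of all genes did. At 48 hr, 14 of 36 DNA replication and S phase genes had a difference above 0, with a median of -0.01. Of that list Mcm6 alone kept the arrays apart, lower in Il10-/- lungs, where 4.91% of all genes lay lower.

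B cell genes were lower in Il10-/- lungs at 16 of 17 markers, with a median difference of -0.49, but 0 kept the arrays apart. Ms4a1, the CD20 antigen, read 5.92, 6.40, and 7.15 on the Il10-/- arrays, against 8.29, 8.57, and 5.86 on the Il10+/+ arrays. Il10+/+ replicate 3 was the lowest of the 6 arrays and the other 2 Il10+/+ arrays were the highest. Cd79a, a subunit of the B cell receptor, read 7.54, 6.69, and 7.40 on the Il10-/- arrays, against 8.96, 8.21, and 7.29 on the Il10+/+ arrays. The summed linear level of the 17 markers was 1662 to 2232 on Il10-/- arrays and 1610 to 4010 on Il10+/+ arrays. The median difference was -0.80 in air, -0.86 after 24 hr of O3, and -0.65 after 72 hr. Markers of alveolar type 1, alveolar type 2, club, ciliated, and endothelial cells had median differences between -0.03 and 0.01. Heart muscle markers had a median of -0.31 and a difference above 0 at 1 of 12, with 0 that kept the arrays apart and a summed linear level of 2706 to 4894 on Il10-/- arrays and 3738 to 5523 on Il10+/+ arrays. Their median was 0.37 in air and -1.50 and -0.30 at 24 and 72 hr of O3. The part of B cell and heart muscle markers in other values was not tested.

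**Figure D4:**
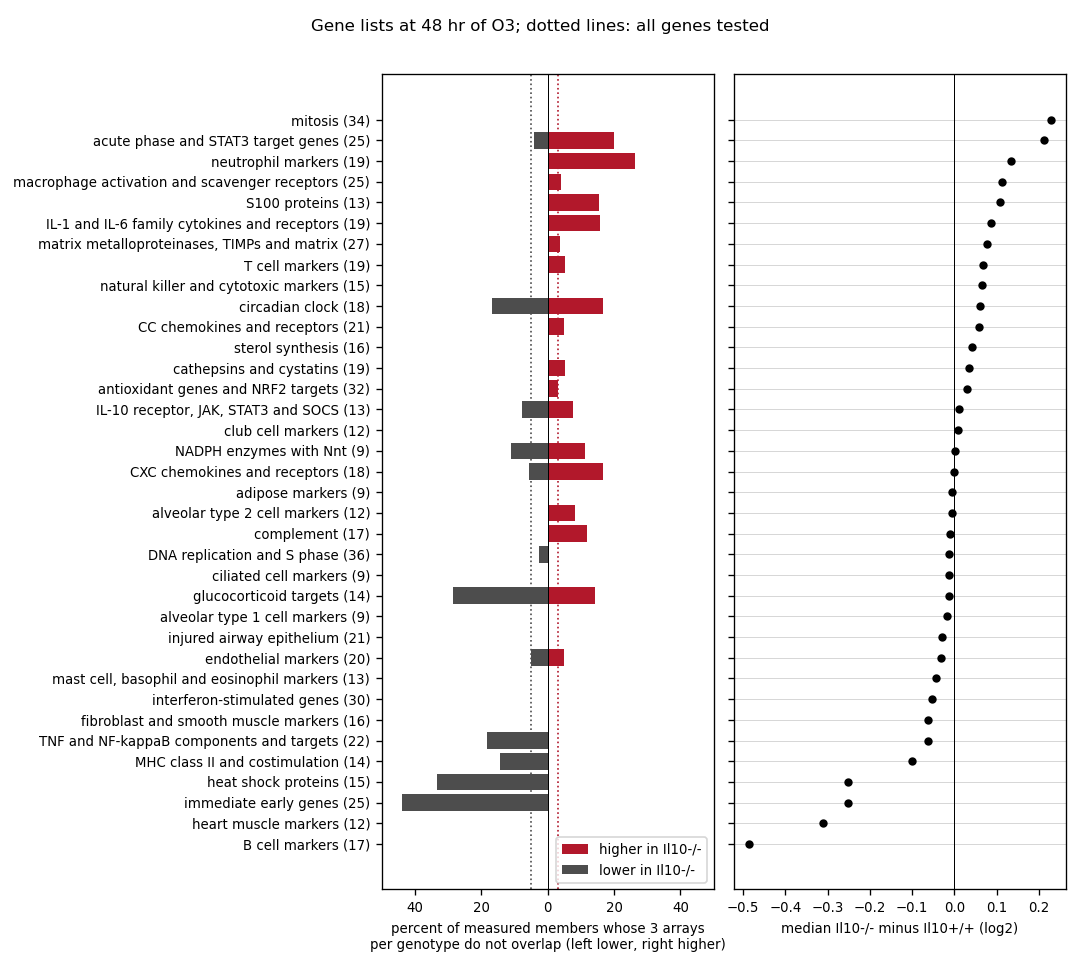
Gene lists of at least 9 measured members (number in brackets) at 48 hr of O3, ordered by median difference. The left panel gives the percent of members whose arrays do not overlap, lower in Il10-/- to the left and higher to the right, with dotted lines for all genes (4.91% and 3.2%), and the right panel gives the median difference (log2). Immediate early genes reach 44% lower and neutrophil markers 26.3% higher.

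The genotype difference at 48 hr was then set beside that on the separate arrays of the other exposures. At 48 hr, 96 genes were higher in Il10-/- lungs with an unadjusted p under 0.05 and no overlap. Of these, 49 lay higher without overlap at 24 hr of O3, 26 at 72 hr, and 8 in air, where the shares of all genes that lay higher were 12.2%, 3.99%, and 1.38%. Of 142 genes lower in the same sense, 45 lay lower at 24 hr, 29 at 72 hr, and 20 in air, against 8.65%, 5.45%, and 3.05% of all genes. Without the air library in doubt, the counts in air were 20 of the 96 higher genes and 31 of the 142 lower genes, where 2.91% of all genes lay higher and 4.14% lower. With an array left out, these counts and shares could only stay or rise. At 24 hr only 2 Il10-/- arrays entered, since replicate 2 stood apart from all others and was left out. Over all genes, the arrays of the genotypes did not overlap at 4.43% in air, 20.9% at 24 hr with its 2 Il10-/- arrays, and 9.43% at 72 hr. Across the 3 O3 times, 58 genes kept the genotypes apart in 1 direction, and 17 of them are on chromosome 1, which holds 5.71% of the genes tested.

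In the test of the difference itself, 0 of 12394 genes passed by limma for 48 hr against air, 0 against 24 hr, and 0 against 72 hr of O3. At an unadjusted p under 0.05 there were 272, 517, and 134 genes, in each case no more than chance gives. Wdfy1, Ctse, and Nnt had differences of 1.52, 1.73, and 0.93 in air and of 1.50, 2.45, and 1.15 at 48 hr, with overlap in air at Ctse and Nnt. That overlap rested on the air library in doubt. Without it the differences in air were 1.86, 2.43, and 1.26, and none of the 3 genes overlapped. Without the air library in doubt, 8 genes passed at 48 hr, Chil1, Ctse, Il10, Nnt, Rab7b, Ramp1, Stk25, and Wdfy1. The library was doubted for its values at several of these genes, Il10, Ctse, and Nnt among them. Leaving it out did not change the differences at 48 hr, only the shared spread. That these genes then passed is therefore no separate support. Saa3, S100a9, and Csf3r had differences of 0.05, -0.24, and 0.12 in air, beside 2.25, 1.57, and 1.19 at 48 hr, and of 2.12, 1.96, and 1.14 at 72 hr. Without the library in doubt their differences in air were 0.02, 0.13, and 0.23, so that the sign of S100a9 in air turned. At 24 hr of O3 the arrays of the genotypes overlapped at Saa3. Orm1 differed by 0.03 in air and by 0.38, 1.62, and 0.45 at 24, 48, and 72 hr of O3. Nr4a1 differed by -0.34 in air and by 0.26, -0.79, and -0.45 at the same O3 times.

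**Figure D5:**
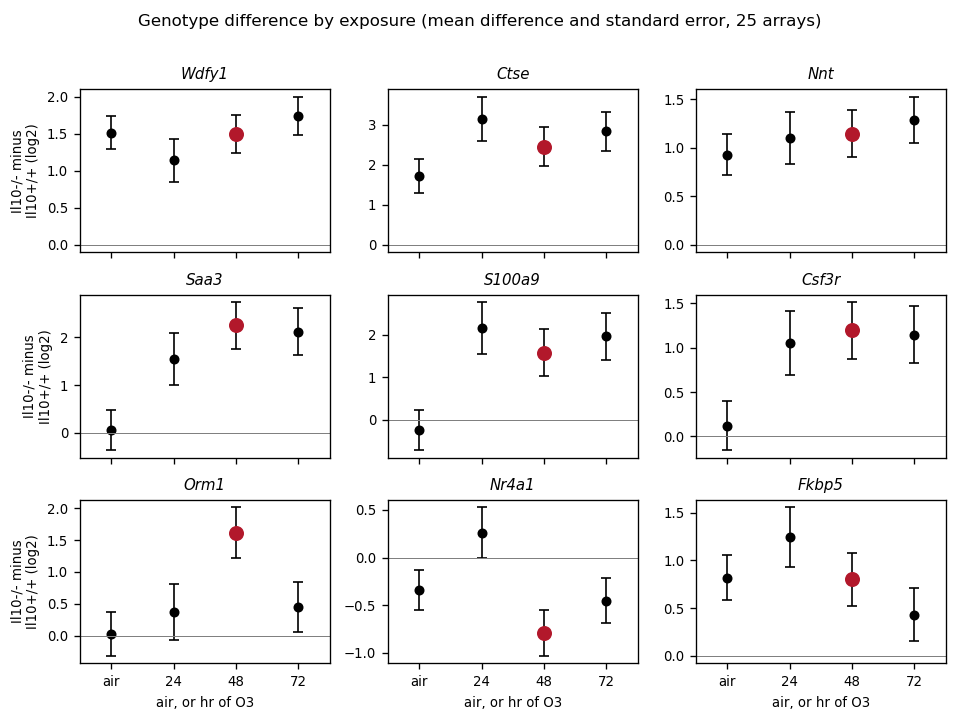
Genotype difference (Il10-/- minus Il10+/+, log2) of 9 genes in air and at 24, 48 (red), and 72 hr of O3, as the estimate and its standard error from 1 model of 25 arrays. Wdfy1, Ctse, and Nnt lie above 0 at every exposure, and Saa3, S100a9, and Csf3r lie between -0.24 and 0.12 in air and above 1 at all 3 O3 times. At 24 hr the arrays of the genotypes overlapped at Saa3.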

How the data were processed

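Gene expression was measured in left lungs on Affymetrix GeneChip arrays. The authors normalized the array files in RMAExpress by the Robust Multichip Average (version and genome build not given in the sources used here) and deposited log2 values, which were taken without further scaling. Precision is limited by the number of arrays. Of 22690 probe sets, those with 1 gene symbol in the platform's 2016 annotation (20393) were used, and the one with the highest mean stood for each of 12394 genes, of which 4958 had several.

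Groups of genotype and exposure, air of 24 and 48 hr pooled, were fitted in 1 model with limma 3.58.1 (R 4.3.3) over 25 arrays, without Il10-/- O3 24 hr replicate 2, the array that joined last in clustering. The methods likewise leave out 1 such array. P-values were adjusted over all genes (threshold 0.05). Differences are Il10-/- minus Il10+/+.

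Members and gene lists were chosen with earlier results of these data known. Genes named were drawn from those of the study's text, the 10 in each direction of lowest p among genes that did not overlap, and the leading member of each list. Not every gene of these sets is given in the text. Others were named after their values were seen, among them Chil1, Orm1, S100a8, Nr4a1, Jun, Btg2, Klf2, Fkbp5, Dbp, Hspa1a, Cd79a, Ms4a1, Saa2, Saa4, Fgb, and Cebpd. Gene order and promoter windows are from RefSeq. The alternatives were other fits, filters, summaries, and arrays left out. The steps were tested on simulated data. Figures used matplotlib 3.10.9 (Python 3.11.15).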

Additional observations from a re-analysis of the deposited data

Results flagged for a closer look

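Within the 4 air arrays of a genotype, the highest or lowest array stood apart from the other 3 in 12 of the 204 groups compared. Chance alone would set off about 1 group in 20, or 10.2 of these, if the groups were independent. They are of chosen genes on the same arrays, so the total cannot say whether a single library stands apart. In the air library in doubt (labelled Il10-/-, 48 hr, replicate 1), Il10 was at 3.871 (others 6.29 to 6.72), Chil1 at 12.23 (9.46 to 9.78), Ramp1 at 9.464 (8.48 to 8.62), Mndal at 9.296, and Elane at 4.494. These arrays give the values in air, and the counts at 48 hr with and without this library stand with the results that depend on the processing. On Il10-/- air 48 hr replicate 2, Hspa1a was at 12.09 (10.39 to 10.53) and Ms4a1 at 5.986 (7.80 to 8.16). Among the Il10+/+ air arrays, Cebpd was at 11.08 and Tagln at 11.11 on 48 hr replicate 1, Cxcr6 at 5.285 on 48 hr replicate 2, Rab7b at 6.95 on 24 hr replicate 1, and Icosl at 7.648 on 24 hr replicate 2. Groups of 3 arrays, those at 48 hr of O3 included, are too small for this comparison.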

How the results depend on the processing

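At 48 hr of O3, 1 gene passed in the fit described above. The count was 4 with only the 6 arrays compared (Ctse, Il10, Nnt, Saa3), 8 with array weights (Il10, Mef2c, Nnt, Orm1, Ramp1, Saa3, St8sia4, Wdfy1), 4 with air of 24 and 48 hr as separate groups, 2 with median centring, with probe sets averaged per gene, or with each probe set tested by itself, and 3 with a trended and robust prior. It was 0 with the third of genes lowest in mean left out, which removed Il10 itself. Leaving out 1 of the 6 arrays gave 1 to 4 genes (4 without Il10-/- replicate 1: Arg1, Il10, Orm1, Ramp1; 2 without Il10+/+ replicate 3: Il10, Wdfy1). In alternatives added after seeing the data, without the air library in doubt the count was 8, with both that library and all Il10-/- O3 24 hr arrays left out 9, and with only those 24 hr arrays left out 3. That library was doubted for its values at several of the genes that then passed. For the genotype difference at 48 hr against that in air, 0 became 1 with array weights (Saa3), 1 without the library in doubt (Chil1), 2 with both added alternatives (Chil1, Mcm6), and 0 to 1 with 1 array left out (Orm1, without Il10-/- replicate 1). An ordinary linear model at an unadjusted p under 0.01 gave 68 genes at 48 hr, and 49, 114, and 30 for the difference from air, 24 hr, and 72 hr. None of these counts exceeds what chance gives at that p. With the replicate number as a block, the count at 48 hr stayed at 1 and that against 24 hr was 1 (Fos). Same-numbered arrays correlated at 0.195, 0.092, and 0.097 in their deviations, so the numbers are not taken to pair the arrays, although each array correlated best with its own number. Of 102 genes over 23 alternatives, 18 values at 8 genes changed sign, none of them past the threshold. With array weights Hat1 came to 0.066 and Stat3 to -0.11, with median centring Hat1 to 0.045 and Mki67 to 0.0093, and with probe sets averaged Epb42 to 0.012. With each of the 6 arrays left out, the lowest and highest differences were -0.13 and 0.12 for Hat1, -0.058 and 0.20 for Stat3, -0.33 and 0.30 for Mki67, -0.22 and 0.22 for Il6, -0.16 and 0.018 for Rela, -0.44 and 0.089 for Cd86, and -0.028 and 0.36 for Il1rn. The causes were not tested. With 3 arrays a genotype, differences near the median standard error of 0.133 could not be called.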

Other observations

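Il10-/- arrays whose source name carries the number 4 (air 24 hr replicate 2 and replicate 3 at each O3 time) had Stk25 values of 6.45 to 7.00, against 7.56 to 8.18 on the 7 other Il10-/- arrays, leaving out the library in doubt and the array left out of the fit. Pam was at 7.11 to 7.58 on these 4 arrays, against 7.62 to 7.94 on the other 7. Il10 overlapped between them, with 6.29 to 7.71 on the 4 and 6.59 to 7.42 on the 7. The labels do not say what the number stands for, and no test was made.

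Bex2, on the X chromosome, read 7.81, 8.07, and 7.78 on Il10-/- arrays at 48 hr of O3, against 8.44, 8.79, and 8.47 on Il10+/+ arrays. Bex2 differed by -0.59 in air and by -0.62, -0.68, and 0.14 at 24, 48, and 72 hr of O3. Arg1, an enzyme of alternatively activated macrophages, read 4.71, 6.44, and 5.63 on Il10-/- arrays, against 4.95, 4.87, and 4.84 on Il10+/+ arrays, and Il10-/- replicate 1, the lowest array, was also the Il10-/- array with the lowest Orm1 and Lcn2.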
